A study of Caenorhabditis elegans with 3 samples.

Results

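The genes described here are the 100 genes of *Caenorhabditis elegans* that are known by a sequence name and had the highest mean log2 ratios on 3 two-colour arrays. They were chosen from 5791 measured genes with such names, out of 14936 measured genes in all. Each array was centred on its median, probes of a gene were averaged, and the genes were ranked by the mean of the 3 arrays, so the ratios themselves chose the members. Their ratios are therefore a description and are given without a test. Each array carried RNA of 1 of 3 preps of mid-L3 hermaphrodites in its second channel and one wild-type reference RNA, which the labels call mixed, in its first. The labels give no genotype for the L3 animals and do not say what was mixed, or whether the preps came from separate cultures. Only 1 group was measured, and all 3 arrays share its reference.

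A sequence name is an address. It joins the name of the cosmid or yeast artificial chromosome clone in which a gene was found during the sequencing of the genome with a number, and a gene keeps it until a family, a mutant or an expression pattern earns it a name. Genes on one clone share the first part of the name and lie near each other. L3 larvae have 1 more larval stage before adulthood, and each larval stage ends in a molt. Between molts the epidermis secretes the precursors of the next cuticle in waves, and the intestine feeds a period of rapid growth, so the time at which a prep is collected within the stage affects the levels of many transcripts.

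The deposited ratios do not state which channel is the numerator, and signs are kept as deposited. Genes of known stage and tissue give the sign a scale. Of 14 measured oocyte and eggshell genes, 12 were negative and 0 positive past an adjusted p of 0.05 in limma over all features. Of 30 major sperm protein genes, 29 were negative and 0 positive. The median ratio of the oocyte and eggshell list was -2.95 and that of the sperm list -2.44. All 8 genes listed for the larval apical matrix and molting were positive, with a median of 2.44, as were 7 of 9 intestinal genes, with a median of 1.25, and 6 of 6 hypodermal genes, with a median of 2.78, a list that shares *noah-1* and *lpr-3* with the apical matrix. The 3 measured yolk protein genes did not share a sign, at -5.52 for *vit-2*, 0.52 for *vit-5* and 0.14 for *vit-6*. Of 2 adult cuticle genes 1 was negative past the threshold, *col-19* at -2.21, and *col-7* was at 0.07. Of 4 germline genes 2 were positive and 2 negative, a list that shares *oma-1* with the oocyte list. Of 4 body wall muscle genes 3 were positive. Of 5 neuronal genes 0 passed in either direction in limma, 1 of them having an unadjusted p under 0.05. The share of all 19075 features that passed with a positive ratio was 13.5%, and with a negative ratio 13.8%.

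The ratios of the members ran from 4.19, an 18.3-fold difference, down to 1.45, a 2.73-fold difference, with a median of 1.81. One member had a mean above 4, 7 lay between 3 and 4, 31 between 2 and 3, and 61 below 2. Among all 14936 genes the highest member held rank 3 and the lowest rank 480, and the other 380 genes at that height have names of their own. All 100 members were positive past the limma threshold, against 9.76% of the sequence-named genes. With a minimum of 2-fold in the test, 55 members passed, against 1.66% of all features. The rule used this contrast, so nothing follows from these counts. Sequence-named genes as a whole leaned the other way, since 17% of them were negative past the threshold and their medians were -0.08, -0.07 and -0.06 in preps 1, 2 and 3.

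**Figure D1:**
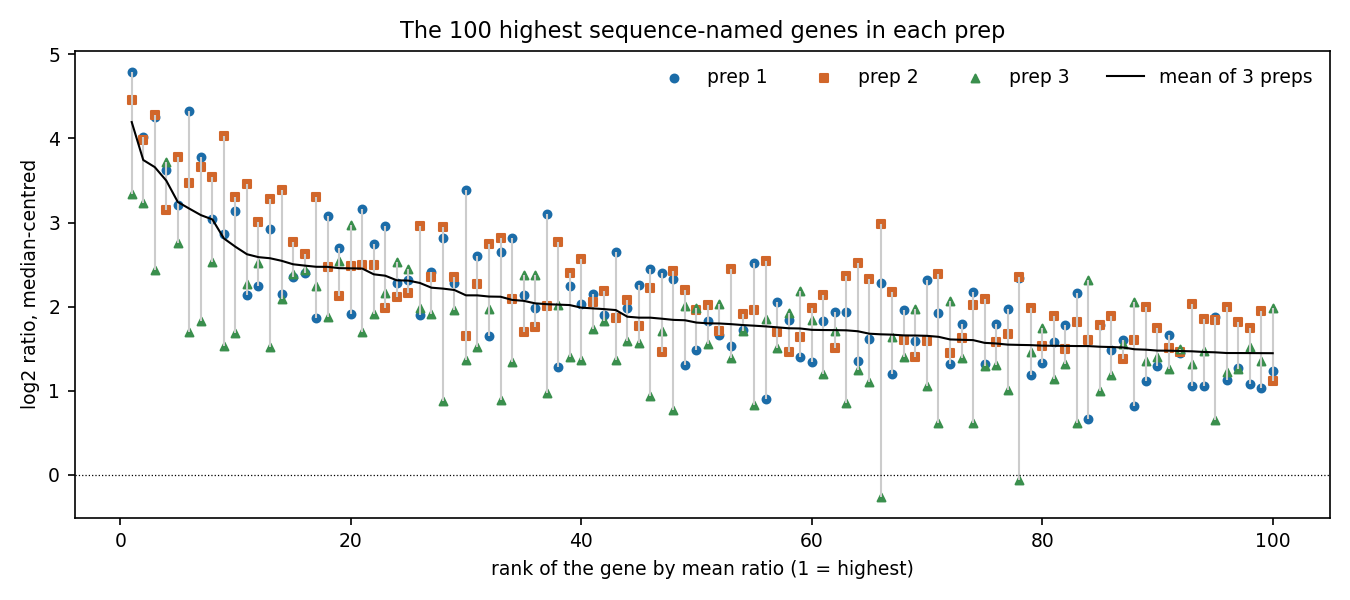
Median-centred log2 ratio of each of the 100 members in the 3 preps (points), with the mean (black line) and the range over preps (grey), against rank by mean. The means fall from 4.19 to 1.45, and the 2 points below 0 both belong to prep 3.

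The highest member was *ZK1025.3* on chromosome I, with log2 ratios of 4.79, 4.45 and 3.34 in preps 1, 2 and 3, a mean of 4.19 ± 0.76 (SD, n = 3, as for all errors here). *F09B12.3* on chromosome X followed with 4.02, 3.98 and 3.23, a mean of 3.74 ± 0.44. *ZK1025.2*, from the same clone as the first gene, had 4.26, 4.28 and 2.44, a mean of 3.66 ± 1.06. In these 3 genes prep 3 was the lowest of the arrays, and every array stood above 2. *Y38E10A.14* on chromosome II had 3.62, 3.15 and 3.73, a mean of 3.50 ± 0.31, and was the only one of the 12 highest members with its highest value in prep 3. *R193.2* on chromosome X had 3.21, 3.77 and 2.75, a mean of 3.24 ± 0.51. *Y48E1B.8* on chromosome II had 4.33, 3.47 and 1.70, a mean of 3.17 ± 1.34. Among the members the last gene held rank 2 in prep 1, rank 8 in prep 2 and rank 46 in prep 3, so its place rests on preps 1 and 2.

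The next 6 members also differed in how evenly the preps carried them. *ZK1025.8*, the third gene of its clone in this set, had 3.77, 3.66 and 1.83, a mean of 3.09 ± 1.09. *R09H10.5* on chromosome IV had 3.04, 3.54 and 2.53, a mean of 3.04 ± 0.50. *C02E7.7* on chromosome V had 2.87, 4.03 and 1.54, a mean of 2.81 ± 1.25. In all 3 genes prep 3 was the lowest, by less in *R09H10.5* than in the others. *H03E18.1* on chromosome X had 3.14, 3.31 and 1.69, a mean of 2.71 ± 0.89. *F32B5.1* on chromosome I had 2.14, 3.46 and 2.27, a mean of 2.62 ± 0.73, and *F44E2.4* on chromosome III had 2.24, 3.01 and 2.52, a mean of 2.59 ± 0.39. In the last 2 genes prep 1 was the lowest array and prep 2 the highest.

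The lower end of the set has no gap beneath it. The 3 members just inside the limit were *Y70C5C.1* at 1.449, *F52B11.2* at 1.448 and *T10G3.3* at 1.447, and the 3 genes just outside were *K12C11.1* at 1.446, *Y43F4A.1* at 1.442 and *C34H4.2* at 1.441. These differences are far below the SD of most of these genes, which was 0.47 for *T10G3.3* and 0.46 for *K12C11.1*, so membership at this end is a matter of rank and not of a measurable step. When the ratios were processed in 11 other ways, leaving out each prep included, 64 members stayed among the 100 highest in all of them, and the highest-ranked member lost in any was at rank 55.

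A role can be stated as background for 6 members, from the similarity of their proteins to proteins of other species, chiefly human. They were picked for that reason and stand for no class of genes, and the files annotate no roles. *C14B9.2* encodes a protein disulfide isomerase, an enzyme that forms and rearranges disulfide bonds of proteins in the endoplasmic reticulum. Its ratios were 1.49, 1.96 and 1.98, a mean of 1.81 ± 0.28. *ZK686.3*, a subunit of the complex that attaches sugar chains to new proteins in the same compartment, had 1.32, 2.09 and 1.30, a mean of 1.57 ± 0.45. *F52B11.2* encodes a phosphomannomutase, which makes a sugar precursor for such chains, and had 1.04, 1.95 and 1.36, a mean of 1.45 ± 0.46. By mean these genes held ranks 50, 75 and 99 among the members, and each was above 1 on every array.

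The other 3 are as follows. *K12H4.7*, of a family of lysosomal serine carboxypeptidases, had 2.03, 2.57 and 1.37, a mean of 1.99 ± 0.60. *F37H8.5*, related to the thiol reductase GILT that opens disulfide bonds in lysosomes, had 1.27, 1.82 and 1.26, a mean of 1.45 ± 0.32. *T09B4.8*, related to a mitochondrial alanine-glyoxylate aminotransferase, had 1.90, 2.96 and 1.99, a mean of 2.28 ± 0.59. In each of these genes prep 2 was the highest array. No role is stated here for the remaining members.

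Of the 100 members, 95 are protein-coding and 5 are pseudogenes in RefSeq, against 92.8% and 6.27% of the sequence-named genes. A pseudogene is a copy of a gene held to make no functional protein, though it may be transcribed. The pseudogenes were *K04A8.10* at 2.46 ± 0.29, *C27C7.2* at 2.14 ± 1.09, *K04F1.1* at 1.78 ± 0.11, *T18H9.11* at 1.71 ± 0.71 and *F28A10.10* at 1.48 ± 0.24. The ratio of *C27C7.2* was 3.39 in prep 1 and 1.65 and 1.37 in preps 2 and 3. Whether a probe of a pseudogene also takes up RNA of a related gene was not tested.

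The members were chosen on the mean of these same arrays, which largely fixes their sign on each, so the following counts are a description and no sign of agreement between preps. Of the members 98 were above 0 on all 3 arrays (21.8% of the sequence-named genes and 27.1% of all features). At 1 or more on all 3 were 83 members (1.9% of the sequence-named genes and 3.34% of all features). The medians over the members were 1.97, 2.08 and 1.58 in preps 1, 2 and 3. The SD over preps had a median of 0.48 among members, against 0.29 among all sequence-named genes and 0.44 among the 380 genes with names of their own that are as high. The spread of the members was thus larger than that of most sequence-named genes and close to that of named genes of the same height, with no test of either difference.

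The most even and the least even members show the extent of that spread. *R07H5.9* on chromosome IV had 1.455, 1.465 and 1.5003, an SD of 0.02. *K04F1.1* and *T14G8.3* followed with SDs of 0.11 and 0.12, the latter from ratios of 1.602, 1.383 and 1.562. At the other end *F15B9.8* on chromosome V had 2.29, 2.98 and -0.26, a mean of 1.67 ± 1.71. *F33D4.6* on chromosome IV had 2.34, 2.36 and -0.06, a mean of 1.55 ± 1.39. These are the 2 members that were not above 0 on every array, and in both prep 3 alone was at or below 0. *Y48E1B.8*, described above, had the third of the largest SDs.

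Prep 3 was the lowest array for 58 members, prep 1 for 29 and prep 2 for 13. This order depends on the scaling of the arrays. Prep 2 had the widest distribution of ratios (SD 0.863, against 0.804 and 0.778 in preps 1 and 3), and the part of this width in the order was not tested. After quantile normalization the counts were 41 for prep 3, 27 for prep 1 and 32 for prep 2, and after scaling each array by its median absolute deviation prep 2 was the lowest most often, for 47 members, with prep 3 at 31 and prep 1 at 22. Among members whose highest and lowest prep lay more than 1 apart, prep 3 was the lowest in 35 of 44 and prep 1 in 9, on the median-centred scale. On this scale the 380 genes with names of their own that are as high were also lowest most often in prep 3. The shares were 47.6% in prep 3, 40.3% in prep 1 and 12.1% in prep 2. The low prep 3 is thus not peculiar to the members. On the same scale prep 2 was the highest array for 50 members, for 57.6% of those 380 genes and for 41.5% of all sequence-named genes. The weights that limma gave the arrays were 1.07, 0.456 and 2.05 in preps 1, 2 and 3, lowest for prep 2. The hypodermal and apical matrix lists, which overlap, had their lowest medians in prep 3 as well. These were 2.16 against 3.37 and 2.95 for hypodermis, and 2.26 against 2.93 and 2.93 for the apical matrix. The intestinal list did not, at 0.99, 1.54 and 1.06 in preps 1, 2 and 3. In the apical matrix list *fbn-1* went the other way and was highest in prep 3, at 3.22. The list medians were read on the median-centred scale only. The part of the stage or of the hybridization in these differences was not tested.

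An array that took no part in the choice gives values that the choice did not fix. The 100 highest sequence-named genes were therefore chosen on 2 preps and read in the third. With prep 1 held out the median in prep 1 was 1.88, against 1.84 in the preps that chose the genes. With prep 2 held out the median was 1.98, against 1.75. With prep 3 held out the median was 1.43, against 2.02. All sequence-named genes had medians between -0.08 and -0.06 in these arrays. On the median-centred scale the chosen genes thus had as high a median in preps 1 and 2 as in the preps that chose them. In prep 3 their median was lower. The size of this contrast changed with the scaling of the arrays. After quantile normalization the held-out medians were 1.87, 1.75 and 1.61 in preps 1, 2 and 3.

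Of the genes chosen without a prep, 99 were above 0 in prep 1, 100 in prep 2 and 96 in prep 3, against 43.8%, 45.6% and 43.3% of the sequence-named genes. A ratio of 1 or more was reached by 85 in prep 1, 92 in prep 2 and 70 in prep 3, against 4.61%, 8.62% and 3.75%. The 5 chosen genes that were not above 0 in the held-out prep were *F42H11.1* at -1.32 in prep 1, and *C02F4.4* at -0.77, *F15B9.8* at -0.26, *ZC434.3* at -0.23 and *F33D4.6* at -0.06 in prep 3. *F15B9.8* and *F33D4.6* are among the 100 members. The arrays share the reference RNA and the probes, so holding one out sets apart only what is peculiar to a single array, and 1 array allows no test.

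**Figure D2:**
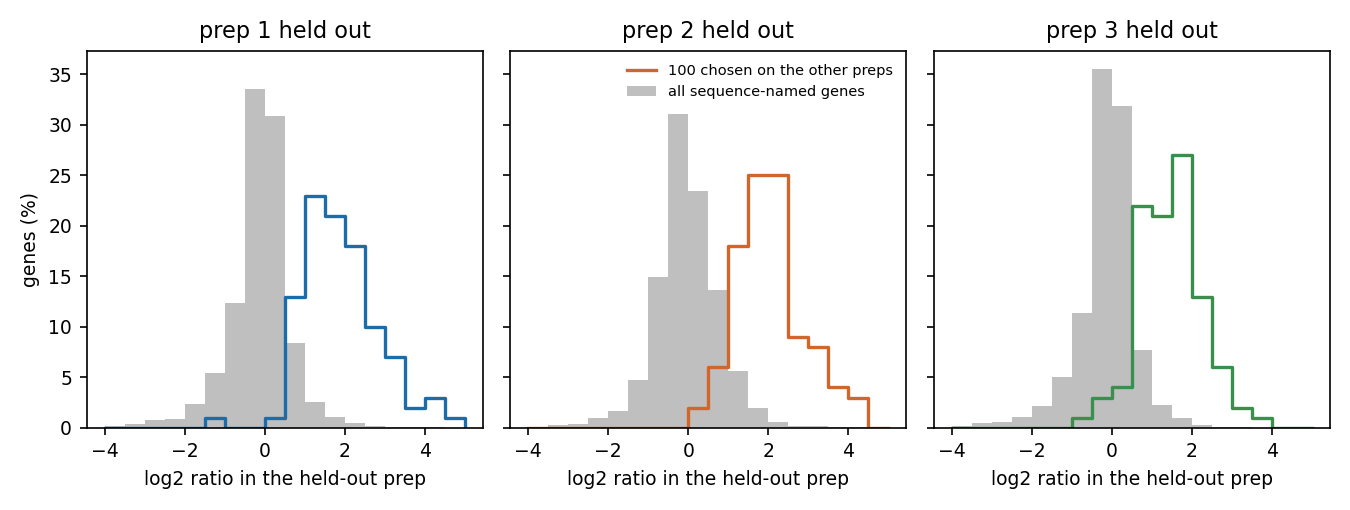
Share of genes in bins of log2 ratio in the prep that was held out, for all 5791 sequence-named genes (grey bars) and for the 100 genes chosen on the other preps (coloured line). Values outside the drawn axis are left out. The chosen genes have medians of 1.88, 1.98 and 1.43 in preps 1, 2 and 3, to the right of the bulk of the genes in every panel.

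Of the members, 4 were measured by more than 1 probe each. The probes of *C11H1.5* had means of 2.49 and 2.28, those of *T16G12.1* 1.62 and 2.12, those of *H43E16.1* 1.61 and 1.84, and those of *C01B9.1* 1.804 and 1.642. For *C01B9.1* the probes lay far apart in the probe order, in sectors 1 and 24 of 32. The largest gap within a prep was that of *T16G12.1* in prep 2, at 1.16 and 2.38.

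Members came from all 6 chromosomes, with larger shares on V and X than the sequence-named genes in general. Chromosome V held 31 members (23.8% of the sequence-named genes) and X held 23 (17.1%). Chromosomes I, II, III and IV held 11, 15, 9 and 11 members, against 13.5%, 18.2%, 11.9% and 15.4% of the sequence-named genes. Per 100 sequence-named genes measured, this is 2.26 members on V and 2.34 on X, and between 1.24 and 1.43 on the others. Among the 380 genes with names of their own that are as high, 17.9% lay on X and 25.8% on V. Of all genes with names of their own, 13.8% lay on X and 27.2% on V. The members on chromosome I had a median of 2.55, against 1.72 on II, 1.87 on III, 1.54 on IV, 1.802 on V and 1.96 on X. The highest of those on I were *ZK1025.3*, *ZK1025.2* and *ZK1025.8*, at 4.19, 3.66 and 3.09. These come from 1 clone. The median on I was the value of *W10C8.5*, at 2.55, which comes from another clone. How far the *ZK1025* genes raise this median was not tested.

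The place of a probe in the probe order goes along with its chromosome. The probe order falls into 32 sectors of 25 by 25 probes, a division known from earlier results of these data, and the median ratio of a sector ran from -0.25 to 0.40 in prep 1, -0.34 to 0.61 in prep 2 and -0.16 to 0.25 in prep 3. All probes of sequence-named genes on V and all but 3 of those on X lay in the last 16. Of the members 60 had their probes in the last 16 sectors, as did 2896 of the 5791 sequence-named genes. In those sectors chromosome IV had 1.18 members per 100 sequence-named genes, against 2.26 on V and 2.34 on X. When each sector was centred on its own median, a fresh choice of the 100 highest held 32 genes on V, 23 on X, 12 on I, 16 on II, 10 on III and 7 on IV. Without prep 1 the number on X was 19, without prep 2 it was 26, and that on V stayed at 31 or 32. These counts are a description, with no test.

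Among the 7 highest members, *ZK1025.3*, *ZK1025.2* and *ZK1025.8*, lie close together on chromosome I, beside other genes with high ratios. In the order of measured genes, 7 genes follow each other from *ZK1025.2* over *nhr-244*, *gtnt-53*, *ZK1025.3*, *bah-1* and *ZK1025.8* to *nhr-113*. The 3 members are positive by the rule that chose them, and the 4 others were positive past the threshold as well (13.5% of measured genes that are not members were). The stretch was singled out, and its ends set, after its values were seen, so this count supports nothing. Of the genes between and beside the members, *bah-1*, named for the absence of bacterial biofilm on the head of its mutants, had 3.49, 3.46 and 2.48, a mean of 3.14 ± 0.58. *nhr-244*, a gene of the nuclear hormone receptor family, had 2.31, 2.42 and 2.47, a mean of 2.4005 ± 0.0832. *gtnt-53* had 2.86, 2.38 and 1.46, a mean of 2.23 ± 0.71, and *nhr-113*, of the same receptor family, had 1.5995, 1.626 and 1.623, a mean of 1.616 ± 0.0148.

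The genes of this stretch did not share one pattern over the preps. The 3 members, *bah-1* and *gtnt-53* were lowest in prep 3, each by at least 0.918 below the next array, while *nhr-244* ranged over 0.162 and *nhr-113* over 0.027. Past *nhr-113* the next 4 measured genes were between -0.67 and 0.43 and passed in neither direction. On the other side *C27C7.1* and *nhr-259* were at 0.40 and 0.22, and beyond them stood *nhr-73* at 3.27 ± 0.40, the member *C27C7.2* at 2.14 and *nhr-74* at 1.5995 ± 0.191. The probes of the 7 genes lay in 2 sectors, and with each sector centred on its own median all 7 remained positive past the threshold, with means between 1.74 and 4.32. They also remained so without any one of the preps. The stretch was picked on these same arrays, and the sector medians were small beside its means. Both results were thus largely fixed by the choice and support nothing. The probe sequences were not used here, so whether the genes resemble each other enough for RNA of one to bind probes of another was not tested.

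**Figure D3:**
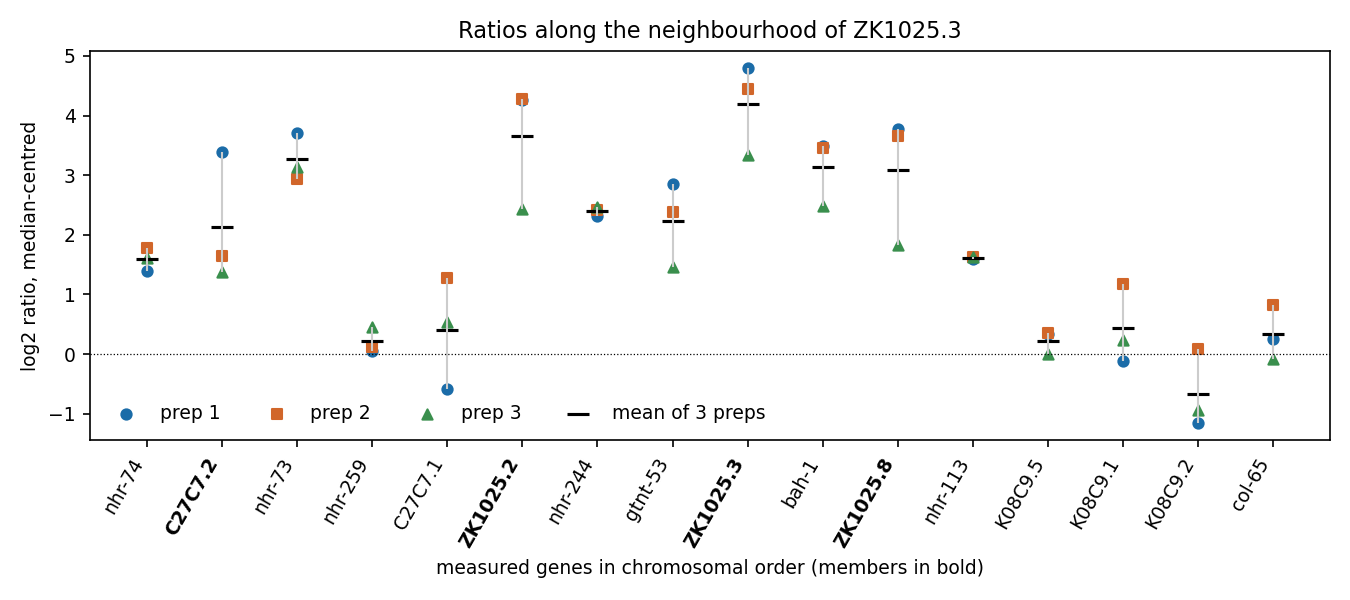
Median-centred log2 ratios of measured genes in their order along chromosome I around *ZK1025.3*, for each prep (points) with the mean (black bar). The 7 genes from *ZK1025.2* to *nhr-113* are above 1.46 on every array, and the 4 genes to their right have means between -0.67 and 0.43.

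Elsewhere members were mostly scattered. The only members with no other measured gene between them were *C02E7.7* and *C02E7.6* on chromosome V. *C02E7.6* had 2.81, 2.09 and 1.34, a mean of 2.08 ± 0.74, and like its neighbour it was lowest in prep 3. The genes on either side of this pair, *H23N18.5* at 0.39 and *C02E7.8* at -0.09, passed in neither direction. With up to 2 other genes allowed between them, a limit set after the values were seen, 3 more pairs were found. In these, the genes between the members did not share their height. *cgr-1*, between *T27A10.6* at 2.45 and *C18B2.3* at 1.52 on X, was at 0.02. *rpy-1*, between *C18H9.6* at 1.97 and *T14B4.19* at 2.20 on II, was at 0.04. *bgal-1* and *pqn-70*, between *T19B10.2* at 1.87 and *T19B10.5* at 1.52 on V, were at -0.50 and -0.71.

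Genes next to a member were more often positive than measured genes in general. Of 195 genes that flank a member and are no members themselves, 45 (23.1%) were positive and 19 (9.74%) negative past the threshold, against 13.5% and 15.5% of all measured genes without the members. Their median was 0.09, against -0.01. Without the neighbours of the ZK1025 and C27C7 members the count was 39 of 188 (20.7%), and with each sector centred on its own median it was 43 of 195 (22.1%), against 12.8%. Among the 32 neighbours with a probe in the same sector as their member 11 (34.4%) were positive, and among the other 163 neighbours 34 (20.9%). Genes with probes in another sector had positive shares of 19.9% at 8 places and 20.1% at 10 places, so the nearest place did not stand out among them. Without prep 2 the positive neighbours numbered 30 (15.4%), against 9.18% of measured genes without the members in the same fit. At 2 to 10 places from a member the positive share ran from 12.4% to 19.5% without a steady fall, being 18.3% at 10 places, so the share was highest at the nearest place but exceeded the background at several others. These shares have no test. Genes that neighbour each other may overlap, and the strand that the probes read was not used here.

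Of the neighbours outside the *ZK1025* stretch, the 5 with the highest means and the 2 with the lowest are given here, a choice made after their values were seen. *cut-2*, which encodes a cuticlin, lies next to *F53F1.4* and had 3.44, 4.25 and 2.46, a mean of 3.38 ± 0.89. *nhr-73*, a nuclear hormone receptor gene next to *C27C7.2*, was at 3.27 ± 0.40. *noah-2*, an apical matrix gene with a zona pellucida domain, lies next to *F52B11.2* and was at 3.09 ± 0.57. *ugt-12*, a UDP-glucuronosyltransferase gene, lies next to *T19H12.3* and was at 2.96 ± 0.29, and the collagen gene *sqt-3*, next to *F23H12.5*, was at 2.49 ± 1.77, with 0.50 in prep 3. At the other end *D1054.10* had -4.86, -5.15 and -5.54, a mean of -5.18 ± 0.34. The member beside it, *D1054.9*, had 1.92, 2.39 and 0.62, a mean of 1.64 ± 0.92. The collagen gene *col-178*, next to *C34F6.1*, was at -3.14 ± 0.54, while *C34F6.1* itself was at 2.37 ± 0.52. These genes stand for no group, and they give no role to the members beside them.

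**Figure D4:**
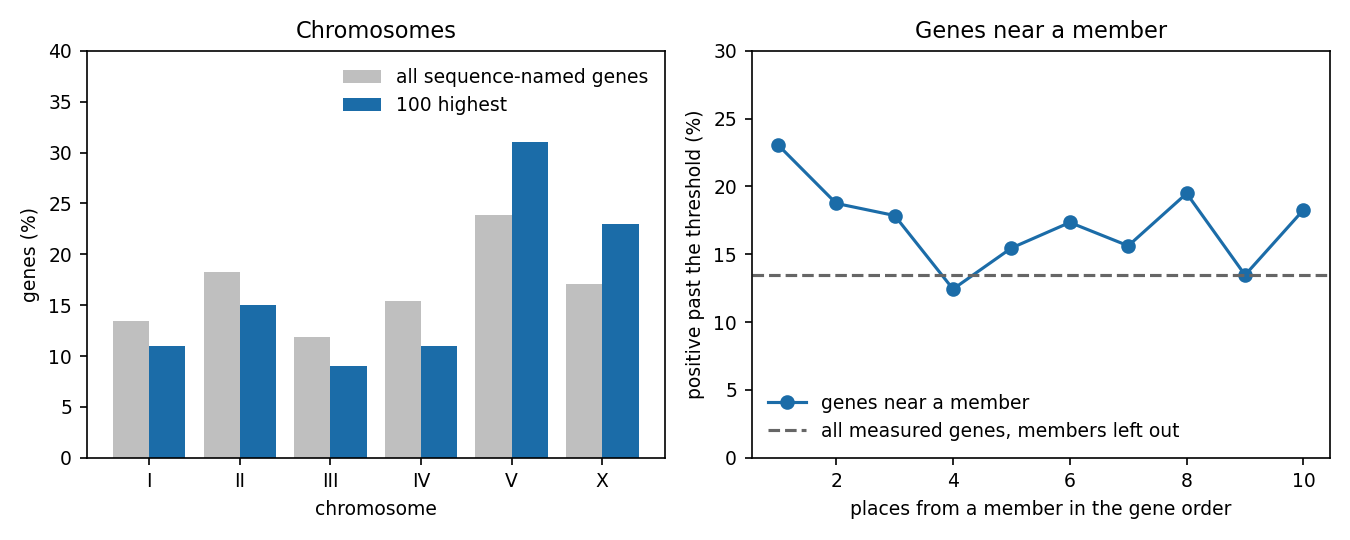
Left, share of the 100 members (blue) and of the sequence-named genes (grey) on each chromosome, in percent. Right, percent of genes positive past the threshold at 1 to 10 places from a member in the order of measured genes, which is 23.1% next to a member, with the level of all measured genes without the members (13.5%) as a dashed line.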

How the data were processed

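RNA of 3 mid-L3 preps was compared with one mixed reference on two-colour arrays. The table holds log2 ratios as deposited by the authors, centred near 0 (deposited medians 0.0272, -0.0664 and 0.0328) in a way not given in the sources used here, as are the dyes, numerator, background correction and annotation build. Base 2 was read from the values, since 97.9%, 97% and 98.3% of them, turned back to linear ratios with base 2, had only 3 decimals (a tolerance of 0.001 on the ratio in thousandths).

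Arrays were centred on the median over 19512 probes with 3 values. Of 20000 probes, 15655 had 1 gene symbol, 198 several and 4147 none listed. Symbols were matched by Entrez identifier to the RefSeq table of assembly WBcel235 for 15569, and chromosomes and gene order come from it. The 19075 features (genes, and 4139 unnamed probes) were fitted with limma 3.58.1 under R 4.3.3 and their means set against 0 (intercept, eBayes, two-sided, Benjamini-Hochberg). This leaves out the reference's spread, and p-values measure the spread between preps, which may be technical. The number of arrays limits the precision. On simulated data with 19075 features for this comparison, 100 of 100 changes of 2 log2 units and 93 of 100 of 1 were recovered. Of 212 calls 19 were false, a larger share than the 0.05 of the threshold. The simulated noise was normal and independent between features. Far fewer features were changed than passed in the data, all of them upward, so these rates may not hold for the arrays.

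Members, lists and alternatives were chosen with earlier results of these data known. The rule for named members took the 12 highest, the 3 on either side of the limit, the 3 most and 3 least even, and runs of neighbouring members. Other genes were named after their values were seen. Protein and promoter comparisons that were planned are not reported here. Every column of the table was used. Figures were drawn with matplotlib 3.10.9.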

Additional observations from a re-analysis of the deposited data

How the results depend on the processing

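Alternatives were values as deposited, centring on the mean, on the density peak or within sectors, 2 scalings, probes with at least 2 arrays, single probes, limma with array weights, a trend, robust moderation or a 2-fold minimum, and leaving out each prep. Those on prep order, neighbours, the ZK1025 stretch and chromosomes were added after seeing the data. The count of members positive past the threshold stayed between 95 and 100, while that of all positive features ran from 1785 to 2977. The exception was the 2-fold minimum, with 55 members, against 1.66% of all features (316 positive, 445 negative). The members were chosen on this contrast, so their count was largely fixed. Negative features numbered 1675 with centring on the density peak. The set shared 82 to 86 genes with the choice made without 1 prep, and 91 to 100 otherwise, with a member median between 1.75 and 2.02. Prep order depended on the scaling: prep 2 was lowest for 32 members after quantile normalization and 47 after scaling by the median absolute deviation, which gave 31 for prep 3. Among the 380 named genes as high, of which 46 were lowest in prep 2 and 181 in prep 3, these were 116 and 110 after quantile normalization and 190 and 87 after scaling. Chromosome IV held 7 members with sectors centred. Of 168 values of single genes under alternatives that kept all arrays, 165 moved by less than the SD over preps. Leaving out a prep cannot move a mean of 3 by that much, but *F15B9.8* ran from 1.02 to 2.64. No paired analysis was possible because there is 1 group. The planned protein comparisons were not run. The table gives no signal over background, so a limit from dim probes could not be set.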
